A study of Mus musculus with 30 samples.

Results

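The medial motoneuron pool (MMN) of the mouse spinal cord was compared with the other 2 motoneuron pools of the series, those of the intermediolateral column (IML) and the lateral motoneurons (LMN). Each pool was taken by laser capture from the cord of the same 5 adult sham-operated mice. The labels used here give no strain, sex, genotype or age in weeks and do not say what the sham operation was, so no group without surgery enters. For every animal and pool, 400 captures were collected and their RNA was split between 2 Affymetrix arrays after double amplification. MMN therefore holds 10 of the 30 arrays and, after the 2 arrays of each animal were averaged, 5 of the 15 samples. The question was which transcripts were higher or lower in MMN than in both other pools, and it was asked of all 12422 probe sets that were not controls.

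Somatic motoneurons of the medial column innervate the muscles of the trunk, whereas those of the lateral column innervate the limbs. The intermediolateral column holds the preganglionic neurons of the sympathetic system, which are cholinergic like the somatic pools but synapse on autonomic ganglion cells. In the embryo, medial column neurons keep the LIM homeobox factors Lhx3 and Lhx4, and lateral column neurons are set apart by Foxp1, retinoic acid synthesis and Hox genes. Cbln1, the gene given beforehand as a marker of the medial pool, encodes a secreted protein of the C1q family that bridges presynaptic neurexins and postsynaptic delta glutamate receptors.

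MMN took a middle place between the other pools for much of the transcriptome. Its mean lay between those of IML and LMN for 5792 probe sets (46.6%), above both for 2675 and below both for 3955. The same count of middle positions was 3476 (28.0%) for IML and 3154 (25.4%) for LMN. In pooled captures, fewer cells of a type and less RNA per cell cannot be told apart, here and in every level given for a pool. For the comparison of MMN with the mean of IML and LMN, limma with the animal as a block called 0 of 12422 probe sets at an adjusted p under 0.05 (0%). At an unadjusted p under 0.05, 730 probe sets passed. With the same model and 5 animals, 686 probe sets (5.52%) were called for IML against the other pools and 640 (5.15%) for LMN. The median 95% interval of the MMN difference reached 0.14 to either side on the log2 scale, and 12380 probe sets (99.7%) had an interval that lay within 2-fold in both directions. No probe set was called against IML and against LMN at once (0%), and 89 passed both tests in the same direction at an unadjusted p under 0.05. The technical arrays of a sample differed by a median of 0.12 on the log2 scale, and the median SD over the 5 MMN samples was 0.16. The pairwise differences share the MMN samples, so they are not independent of each other.

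**Figure D1:**
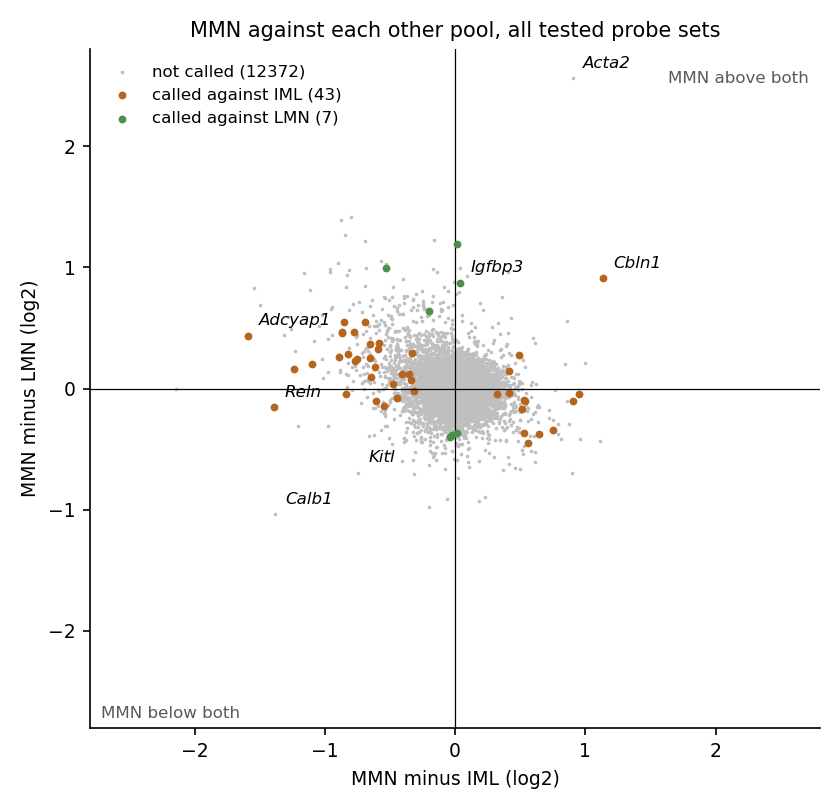
Difference of MMN from IML (x axis, log2) against its difference from LMN (y axis, log2) for each of the 12422 probe sets; brown points were called against IML (43), green points against LMN (7) and grey points in neither test. Points at the upper right have MMN above both pools and points at the lower left below both; Cbln1 is the brown point farthest to the right, Acta2 lies highest, and Calb1 stands alone at the lower left.

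The pools were also ranked within each animal. MMN was the highest pool in 5 of 5 animals for 29 probe sets (0.233%) and the lowest in 5 of 5 for 49 (0.394%). The corresponding numbers were 309 and 284 for IML and 390 and 457 for LMN. All 5 MMN values stood above all 10 others for 0 probe sets and below them for 1. Of the 29 probe sets that ranked highest, 8 read below the median level of all probe sets, 7.10 (log2 intensity), in every pool, against 37 of the 49 that ranked lowest. Their differences from the mean of both pools ran from 0.06 to 1.02 for the highest set and from -0.47 to -0.07 for the lowest set. The 3 largest in the highest set were Cbln1, the calcium buffer gene Pvalb (0.51 ± 0.16, log2, SE, n = 5) and Cubn (0.51 ± 0.11), which encodes the endocytic receptor cubilin; Pvalb and Cubn were picked out after their values were seen.

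Cbln1 had the smallest p-value of all probe sets and was 2.19-fold brighter in MMN than in IML and 1.88-fold brighter than in LMN. Its only probe set read 9.05, 9.74, 10.02, 10.26 and 9.69 (log2 intensity) in the MMN samples of animals 1 to 5. The IML samples of the same animals read 8.74, 8.74, 8.48, 8.69 and 8.45. The LMN samples read 8.79, 8.56, 9.01, 9.15 and 8.71. MMN was thus the highest pool in every animal, but the MMN value of animal 1 was lower than the LMN value of animal 4, so MMN and LMN overlapped while MMN and IML did not. The difference from the mean of both pools was 1.02 ± 0.14 (log2, SE, n = 5), a 2.03-fold difference, with a 95% interval from 0.72 to 1.32 and an adjusted p of 0.128. Animal by animal, the difference was 0.29, 1.09, 1.27, 1.34 and 1.11, with animal 1 far below the rest. Against IML the difference was 1.13 ± 0.16 and was called (adjusted p = 0.0157), and against LMN it was 0.91 ± 0.16 and was not (adjusted p = 0.0856). IML was -0.22 ± 0.16 from LMN (adjusted p = 0.431).

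The Cbln1 call in the comparison with both pools turned on how the animals and the technical arrays were treated. Without animal 1 the difference was 1.20 and was called (adjusted p = 0.00305), and without animal 3 it was 0.96 with an adjusted p of 0.997. With the animal as a random block the adjusted p was 0.00725. Over the 18 alternatives the difference stayed between 0.94 and 1.20, while the adjusted p ran from 1.58e-07 to 0.997 and passed the threshold in 3 alternatives. The lowest of these values came from all 30 arrays with the sample as a random block. In that fit the technical arrays of the same RNA entered singly, without being averaged. The other cerebellin genes Cbln2, Cbln3 and Cbln4 had no probe set under their symbols here. Of the 6 measured genes of the wider list of cerebellins, C1q proteins and their synaptic partners, 2 had MMN above both pools and 2 below both, and the median difference was 0.00; the synaptic scaffold gene Homer1 differed by -0.02 ± 0.05, a value that turned positive under quantile normalization and without animal 1.

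**Figure D2:**
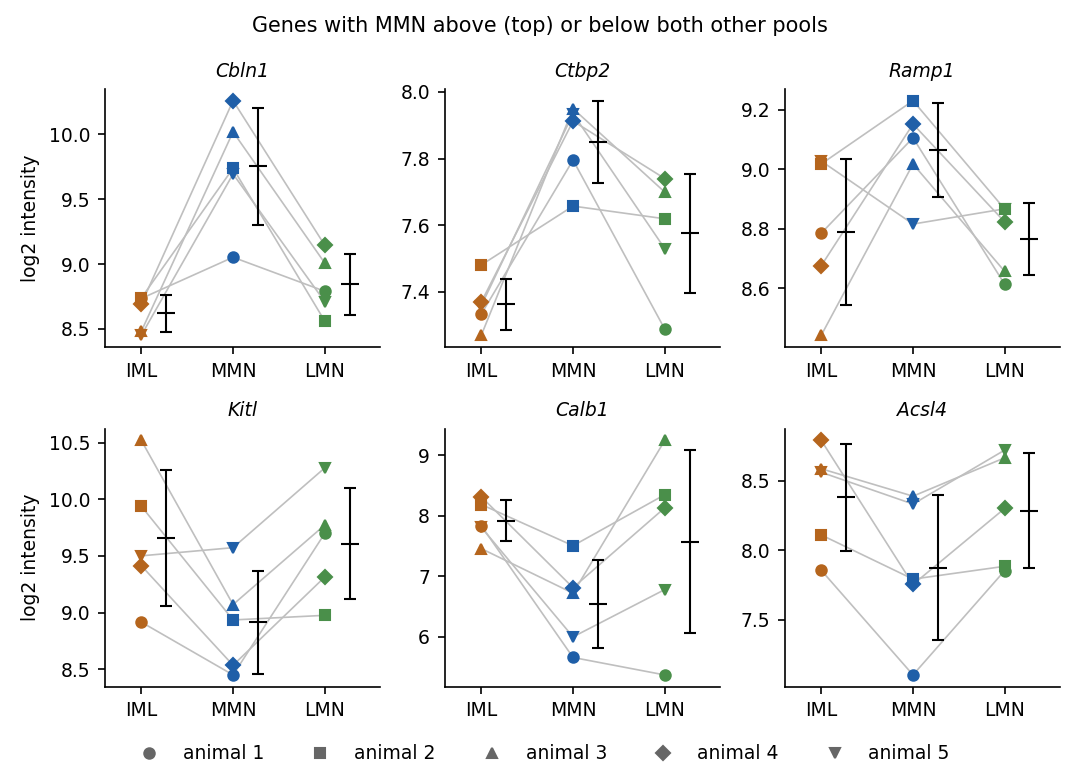
log2 intensity of 6 genes in IML, MMN and LMN, with 1 symbol per animal, grey lines joining the samples of an animal, and black bars for the mean and SD of the 5 animals; the vertical axes do not start at 0. In the upper row MMN has the highest mean and in the lower row the lowest, and for Cbln1 the MMN symbol is the highest of its line in all 5 animals, with animal 1 closest to the other pools.

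Beside Cbln1, 11 genes with an MMN mean above both pools were named by a fixed rule, by the smaller of their 2 pairwise statistics. None of them was called against the mean of both pools, and their differences were between 0.16 and 0.40 on the log2 scale. Ctbp2, a transcriptional co-repressor whose locus also encodes the ribbon synapse protein RIBEYE, was second by this rule. It read 7.80, 7.66, 7.95, 7.91 and 7.93 in MMN, 7.33, 7.48, 7.27, 7.37 and 7.36 in IML and 7.29, 7.62, 7.70, 7.74 and 7.53 in LMN. MMN was the highest pool in all 5 animals, by the least in animal 2. Its difference was 0.38 ± 0.07 from the mean of both pools (adjusted p = 0.473) and 0.49 ± 0.08 from IML, which was called (adjusted p = 0.0345).

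The other genes of that group covered unlike functions. Nfix, a transcription factor of the nuclear factor I family, was 0.35 ± 0.10 higher in MMN, with MMN highest in 5 of 5 animals, although its second probe set differed in the opposite direction. Adcy8, an adenylyl cyclase stimulated by calcium, was 0.33 ± 0.11 higher, also with 5 of 5. Ramp1, the partner protein that turns the calcitonin receptor-like receptor into a receptor for the peptide CGRP, was 0.29 ± 0.08 higher, with MMN highest in 4 of 5 animals and lowest in animal 5. Fcho1, which nucleates clathrin-coated pits, was 0.20 ± 0.05 higher. Inpp5a, an inositol polyphosphate phosphatase, was 0.16 ± 0.04 higher, and Slc25a28, the mitochondrial iron importer mitoferrin 2, was 0.19 ± 0.05 higher, both in 5 of 5 animals. The RNA-binding subunit gene Rbm8a (0.22 ± 0.06), the diphthamide synthesis gene Dph5 (0.22 ± 0.07), Ipp (0.34 ± 0.11) and the desmosomal membrane protein gene Perp (0.40 ± 0.12) completed the group. The adjusted p of each of these 10 genes was 0.844.

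A further 12 genes with MMN below both pools were named by the same rule, and none was called (adjusted p from 0.652 to 0.844). The largest difference was that of Calb1, which encodes the calcium buffer calbindin. It read 5.65, 7.50, 6.72, 6.81 and 5.99 in MMN, 7.83, 8.18, 7.45, 8.31 and 7.81 in IML and 5.37, 8.35, 9.24, 8.13 and 6.78 in LMN. MMN was the lowest pool in 4 of 5 animals, with LMN lower in animal 1. The LMN values spanned the whole range of the other pools, and the difference was -1.21 ± 0.38 (adjusted p = 0.844).

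Kitl encodes the ligand of the receptor tyrosine kinase KIT. It read 8.45, 8.93, 9.07, 8.53 and 9.57 in MMN, 8.92, 9.94, 10.52, 9.41 and 9.50 in IML and 9.70, 8.98, 9.77, 9.31 and 10.28 in LMN. MMN was lowest in 4 of 5 animals and the ranges of the 3 pools overlapped. The difference was -0.72 ± 0.21 (adjusted p = 0.844).

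Plk4, the kinase that starts centriole duplication, had the smallest p-value of these 12 genes and was -0.32 ± 0.07 from the mean of both pools, with MMN lowest in 5 of 5 animals. Acsl4, which activates arachidonic acid to its CoA ester, was -0.46 ± 0.10 from it, again in 5 of 5 animals. The cohesin cofactor gene Pds5b (-0.26 ± 0.07), the arginine synthesis gene Ass1 (-0.25 ± 0.06) and the prefoldin subunit gene Vbp1 (-0.47 ± 0.16) also had MMN lowest in 5 of 5. The remaining genes were the RNA-binding protein gene Hnrnpk (-0.28 ± 0.08), Scoc (-0.40 ± 0.12), the Golgi mannosidase gene Man1a (-0.37 ± 0.12), the cholesterol synthesis gene Hmgcs1 (-0.28 ± 0.09) and Serinc3 (-0.30 ± 0.09). The MMN sample of animal 1 held the lowest of the 5 MMN values for 10 of the 12 genes. Their median difference was -0.35 with all animals and -0.24 without animal 1, and 3 of the 12 moved by over 1.5 times when it was left out. Among the 12 genes with MMN above both, no gene moved by over 1.5 times when any one animal was left out.

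**Figure D3:**
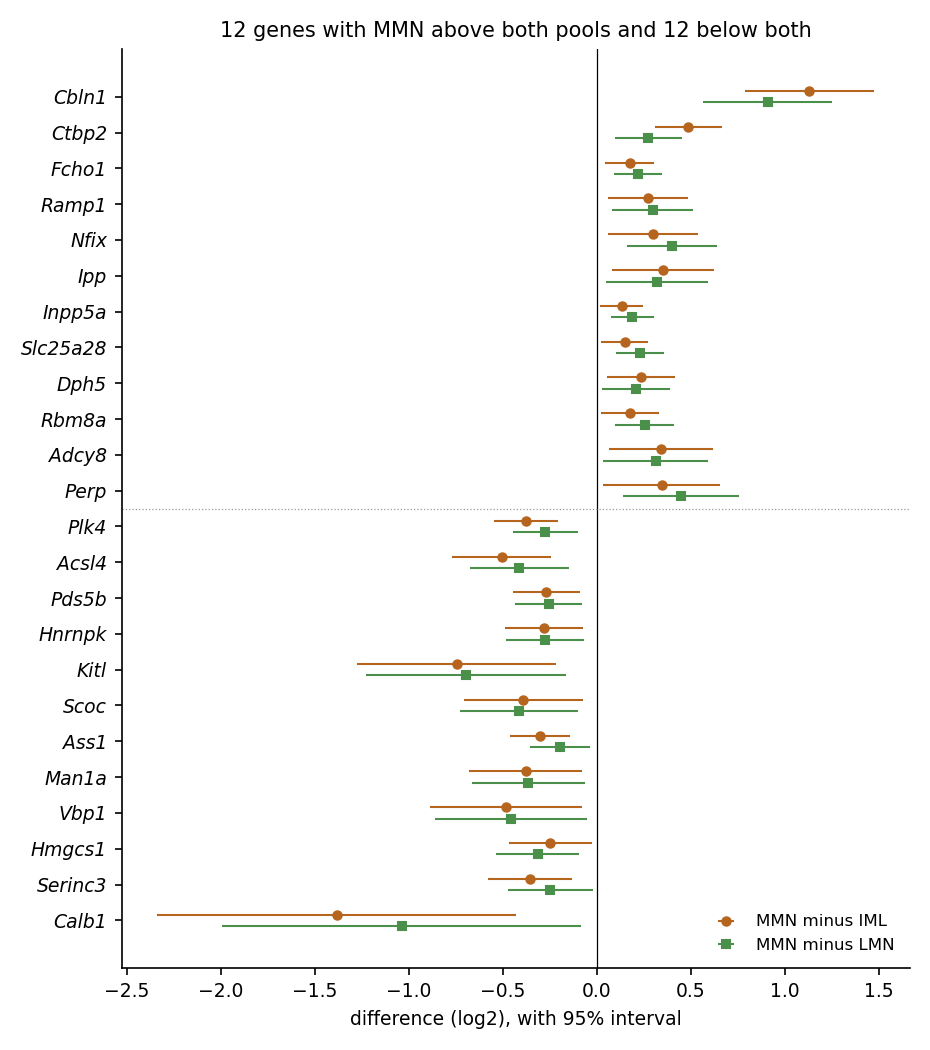
Differences of MMN from IML (brown circles) and from LMN (green squares), log2, with 95% intervals from the model, for the 12 genes named with MMN above both pools (upper block) and the 12 named with MMN below both (lower block), each block in the order of the rule. Cbln1 lies farthest to the right, Calb1 lies farthest to the left with the widest intervals, and no interval crosses 0 because the rule chose the genes by these values.

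Against IML alone, 43 probe sets were called (0.346%), 14 of them higher in MMN (0.113%) and 29 lower (0.233%). Cbln1, the neurofilament gene Nefh and the homeobox gene Irx3 were among those higher in MMN, and the peptide gene Adcyap1, the reelin gene Reln and the adhesion gene Ncam1 among those lower. For all 43 the MMN mean was nearer to LMN than to IML, and 41 were also called between IML and LMN. Ctbp2 and Cbln1 were the exceptions. A place nearer to LMN is favoured by the choice of these probe sets. None of them was called against LMN too, and both differences of a probe set have the same standard error. In 34 of the 43 MMN lay between the other pools, and in 9 it lay outside both. This count did not hold up to the loss of an animal: it was 0 without animal 3, 0 without animal 4, 1 without animal 5 and 13 without animal 1, against 42 without animal 2, and it was 21 without the LMN sample of animal 2.

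Nefh, the heavy neurofilament subunit of large-calibre axons, read 12.25, 11.83, 12.22, 12.20 and 12.52 in MMN and 11.30, 11.35, 11.45, 11.72 and 11.97 in IML. In LMN it read 12.94, 12.10, 12.45, 12.47 and 12.94. MMN was the middle pool in all 5 animals, 0.65 ± 0.11 above IML (adjusted p = 0.0345) and -0.37 ± 0.11 from LMN (adjusted p = 0.212). The MMN mean also lay in the middle for Irx3, a homeobox factor (0.95 ± 0.17 above IML, adjusted p = 0.04), Thrsp (0.75 ± 0.12 above IML, adjusted p = 0.0345) and Kcnab1, a beta subunit of Shaker potassium channels (0.53 ± 0.09 above IML, adjusted p = 0.0345). Sh3bgr was 0.91 ± 0.12 above IML and -0.10 ± 0.12 from LMN. Fgf11, an intracellular homologue of the fibroblast growth factors, was 0.54 ± 0.07 above IML (adjusted p = 0.0122).

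Among the 29 probe sets lower in MMN than in IML, Adcyap1 had the largest difference. It encodes the neuropeptide PACAP and read 6.95, 7.99, 8.07, 8.61 and 7.53 in MMN, against 8.88, 9.35, 9.84, 10.40 and 8.63 in IML. The LMN samples read 6.81, 7.21, 6.85, 9.11 and 6.98. MMN and IML did not overlap, and the difference was -1.59 ± 0.22 (adjusted p = 0.0148), whereas MMN was 0.44 ± 0.22 above LMN (adjusted p = 0.468). Reln, which encodes the extracellular guidance protein reelin, was -1.39 ± 0.24 from IML (adjusted p = 0.0375) and -0.15 ± 0.24 from LMN. Its MMN values were 7.33, 9.30, 8.62, 7.55 and 8.19, its IML values 8.99, 10.16, 9.67, 9.20 and 9.91 and its LMN values 7.11, 9.79, 9.10, 8.19 and 7.56, so MMN was below IML in every animal while MMN and LMN overlapped.

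The neural cell adhesion gene Ncam1 was called by 2 of its probe sets, at -0.87 ± 0.12 and -0.61 ± 0.09 from IML, while another probe set of Ncam1 differed by 0.02 and was not called. The neuronal calcium sensor gene Hpca was -0.77 ± 0.08 from IML (adjusted p = 0.0059) and the synaptotagmin gene Syt5 was -0.48 ± 0.06 (adjusted p = 0.0059). Adcy7, another adenylyl cyclase, was -0.83 ± 0.10 from IML and level with LMN (-0.05 ± 0.10). The cation channel gene Trpc4 (-0.55 ± 0.09), the arginine transporter gene Slc7a3 (-0.31 ± 0.05), the somatostatin receptor gene Sstr2 (-0.65 ± 0.11) and Marcks, a substrate of protein kinase C (-0.86 ± 0.14), were also called. Ahi1, a gene of the ciliary transition zone, was -1.10 ± 0.12 from IML and was the only probe set still called without animal 5. The extracellular matrix gene Postn was -1.24 ± 0.22 (adjusted p = 0.046).

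Against LMN alone, 7 probe sets were called (0.0564%), 4 higher in MMN (0.0322%) and 3 lower (0.0242%). All 7 were also called between IML and LMN, and for all 7 MMN was nearer to IML than to LMN. The nearer place was fixed by the choice of these probe sets and is no separate result. None of them was called against IML too, and both differences of a probe set have the same standard error. Without animal 2 none was called, without animal 3 none, without animal 5 none, and without animal 1 the 1 probe set called was that of Cbln1; without animal 4 the count was 5.

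The 3 named genes that were higher encode secreted proteins. Igfbp3, a binding protein of insulin-like growth factors, read 8.32, 10.02, 8.11, 8.13 and 8.56 in MMN, 7.27, 8.72, 7.46, 7.48 and 7.85 in LMN and 8.11, 9.75, 8.17, 8.05 and 8.88 in IML. Each MMN sample was higher than the LMN sample of its animal, the difference was 0.87 ± 0.10 (adjusted p = 0.00861), and MMN and IML were level (0.04 ± 0.10). Itih5, of a family of hyaluronan-binding proteins, was 1.00 ± 0.14 above LMN (adjusted p = 0.0228) and -0.53 ± 0.14 from IML. Bmp6, a bone morphogenetic protein, was 0.64 ± 0.07 above LMN (adjusted p = 0.00861) and -0.20 ± 0.07 from IML. A probe set with no gene symbol had the largest difference, 1.19. For Igfbp3 the sample of animal 2 was the highest in each of the 3 pools. The same held for the markers of connective tissue. For those of vessels, animal 2 was the highest in MMN and LMN but not in IML.

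The 2 named genes that were lower in MMN than in LMN were dim, with pool means from 5.08 to 5.57 (log2 intensity). The hormone gene Gast differed by -0.40 ± 0.05 (adjusted p = 0.00861) and the T-box factor gene Tbx2 by -0.37 ± 0.05 (adjusted p = 0.0208). Neither value came from the brightest probe set of its gene. With each of the 8251 genes represented by its brightest probe set, 0 were called lower in MMN than in LMN. Gast and Tbx2 were both measured by probe sets with a suffix. That of Gast (f) marks possible binding of related transcripts, and that of Tbx2 is r. The 2 other probe sets of Tbx2 differed from the mean of both pools in the opposite direction.

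The 1116 probe sets called between IML and LMN (8.98%) show where MMN stood on the axis that separates the outer pools. MMN lay between them for 1049 (94.0%), above both for 25 and below both for 42. A middle place is favoured here, because the probe sets were chosen for a wide gap between the other pools. On a scale from 0 at the LMN mean to 1 at the IML mean, the median position of MMN was 0.48, with quartiles of 0.32 and 0.65. MMN was nearer to LMN for 601 probe sets and nearer to IML for 515.

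No measured gene of the motoneuron identity lists was called between MMN and LMN. Over all 8251 genes, each by its brightest probe set, 3 were called higher in MMN than in LMN and 0 lower. The count for these lists was near that share. Slc18a3, the vesicular acetylcholine transporter of cholinergic neurons, read 9.87, 7.58, 7.40, 8.65 and 7.97 in MMN. In LMN it read 10.11, 7.12, 8.36, 8.49 and 9.59, and in IML 7.15, 7.57, 7.08, 6.81 and 7.29. MMN was 1.11 ± 0.42 above IML (adjusted p = 0.31) and -0.44 ± 0.42 from LMN (adjusted p = 0.735), neither of which was called. The lowest MMN and LMN values lay within the IML range, so the pools overlapped. Prph, the intermediate filament peripherin, had means of 10.37 in MMN, 9.75 in IML and 10.33 in LMN, with SDs that exceeded these differences. Choline acetyltransferase and the choline transporter had no probe set under their symbols here, nor had Mnx1, a homeobox factor of motoneurons.

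The list of medial column identity held 12 genes, of which 8 were measured. In 2 of them MMN was above both pools, in 1 below both and in 5 between, with a median difference of 0.01 beside -0.01 over all 8251 genes. Cbln1, the marker given beforehand, was 1 of the 2 above both and the only member called in any test, against IML. Its place in this list repeats the result given above and is no separate result. Lhx3 had means of 6.93 in MMN, 6.80 in IML and 6.99 in LMN, and its difference from the mean of both was 0.03 ± 0.04. Isl1, another LIM homeobox gene of motoneurons, was -0.09 ± 0.09. Both genes read below the median level of 7.10 in all 3 pools.

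In the list of lateral column identity, 6 of 14 measured genes had MMN below both pools and 2 above both, and none was called. The orphan nuclear receptor gene Nr2f2 was -0.53 ± 0.14, with MMN lowest in 4 of 5 animals, and its relative Nr2f1 was -0.28 ± 0.10, also lowest in 4 of 5. The median of this list was -0.05 with all animals and -0.02 without animal 1. Aldh1a2, which makes retinoic acid in embryonic limb motoneurons and also marks meninges, was 0.18 ± 0.06. The list of visceral preganglionic markers had a median of -0.17 over 10 genes, with 4 below both pools, 1 above both and 5 between; Adcyap1 was the 1 member called, against IML. Tac1, the tachykinin precursor gene, differed by -1.07 ± 0.52 from the mean of both pools, with IML at 8.09 and MMN (5.94) and LMN (5.95) level; it was picked out after its values were seen.

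Of the Hox genes of groups 10 to 13, which pattern the lumbar and sacral cord, 6 of 8 measured had MMN above both pools. The corresponding count over all 8251 genes was 1880. The median of these Hox genes was 0.06, and 0 were called. Hoxd10 (0.15 ± 0.06) and Hoxa10 (0.23 ± 0.14) had the smallest p-values among them, and Hoxd10 was highest in MMN in 2 of 5 animals. Both were dim, with a mean over all samples below 7.10, the median level of all probe sets. The median difference of the 8 Hox genes stayed between 0.04 and 0.10 under the 12 rescaled or reduced data sets. In animals 1 to 5 it was 0.04, -0.002, -0.03, 0.08 and 0.12, so it was above 0 in 3 of 5 animals. The 23 measured Hox genes of groups 1 to 9 had 6 above, 7 below and 10 between, with a median of 0.00. Hoxc8 (-0.19 ± 0.07) and Hoxc6 (-0.14 ± 0.08) were the members with the smallest p-values, and both also had a mean below that level.

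Genes of excitability and synaptic input had medians from -0.06 to -0.01, beside -0.01 over all genes. Of 40 potassium channel genes, 19 had MMN below both pools, 3 above both and 18 between, beside 2461, 1880 and 3910 of all 8251 genes. Their median was -0.03, Kcnab1 was the 1 member called (higher than IML), and Kcnj9, a subunit of G-protein-gated channels, was the largest above both (0.27 ± 0.09). The suffixed probe set of Kcnj9 was dim, with a mean over all samples below 7.10, the median level of all probe sets. Of 18 monoamine receptor genes, 12 had MMN below both pools and 4 above both, with a median of -0.05 and 0 called. Their differences ran from -0.12 to 0.05; the dopamine receptor gene Drd2 was -0.11 ± 0.05 and the histamine receptor gene Hrh1 was -0.10 ± 0.05, with MMN means of 6.42 and 6.08. Of 16 GABA and glycine receptor genes, 8 had MMN below both and 2 above both, with a median of -0.06; the glycine receptor beta subunit gene Glrb was level with IML (0.06 ± 0.09) and -0.45 ± 0.09 from LMN (adjusted p = 0.101). The 13 glutamate receptor genes had 4 below, 2 above and 7 between, and the median was -0.01. Single animals moved some of these medians: that of the potassium channels was -0.01 without animal 3, and that of the GABA and glycine receptors was -0.03 without animal 1.

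Genes of energy supply had positive medians, and for oxidative phosphorylation animal 3 held most of the difference. Of 65 measured genes of oxidative phosphorylation, 39 had MMN above both pools, 4 below both and 22 between, with a median difference of 0.11. Limma called 0 of them in each of the 3 MMN tests. Atp5c1, a subunit of ATP synthase, read 11.53, 11.35, 11.87, 11.43 and 11.65 in MMN, 10.99, 11.30, 11.17, 11.09 and 11.31 in IML and 11.37, 11.51, 11.66, 11.33 and 11.37 in LMN. MMN was highest in 4 of 5 animals, and the difference was 0.25 ± 0.07 (adjusted p = 0.844). Ndufb11 of respiratory complex I was 0.25 ± 0.10 and Atp5o was 0.21 ± 0.09. In animals 1 to 5 the median over the 65 genes was -0.01, 0.00, 0.38, 0.02 and 0.09, so animal 3 stood apart, and without animal 3 the median was 0.03.

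The 39 proteasome subunit genes had 17 above both pools, 5 below both and 17 between, with a median of 0.06. By animal the proteasome median ran from -0.11 in animal 2 to 0.18 in animal 3, and it was 0.03 without animal 1 and 0.03 without animal 3. Psme1, a subunit of the interferon-induced activator, was the 1 member called (-0.69 ± 0.12 from IML). The 17 glycolysis genes had 7 above, 1 below and 9 between, with a median of 0.08; the phosphoglycerate kinase gene Pgk1 was 0.23 ± 0.09 and the neuronal glucose transporter gene Slc2a3 was 0.18 ± 0.09. The glycolysis median was 0.22 in animal 1 and -0.11 in animal 5, and it was 0.01 without animal 1. Microtubule motors and tubulins kept to the middle, with 30 of 40 between the other pools and a median of -0.02.

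**Figure D4:**
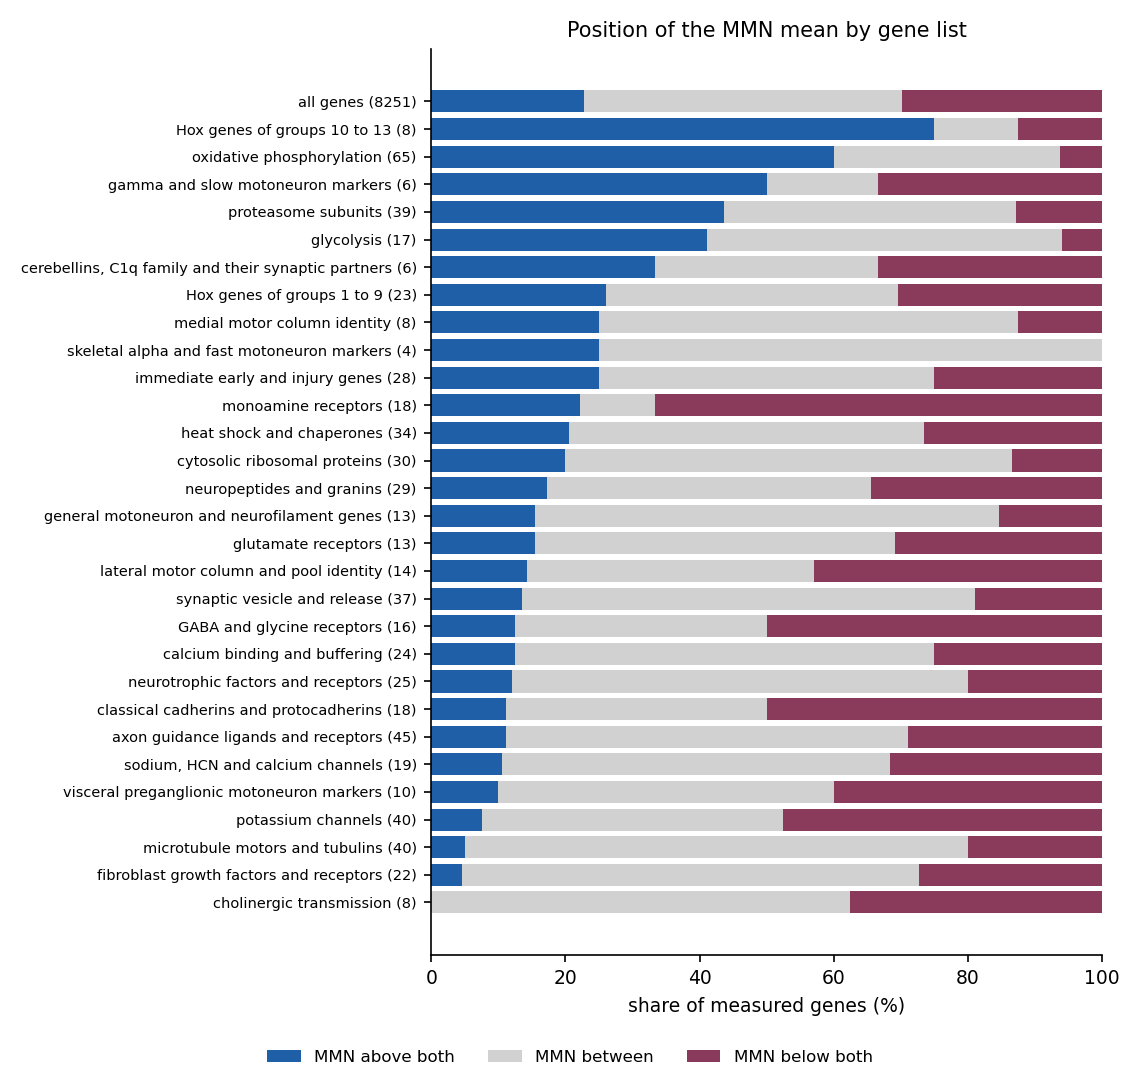
Share of the measured genes of each list (in percent, x axis) for which the MMN mean lay above both other pools, between them or below both, with the number of measured genes in parentheses and all genes in the top bar. MMN above both is drawn in blue, between in grey and below both in purple; the Hox genes of groups 10 to 13 and the genes of oxidative phosphorylation have the widest blue bars, and the monoamine receptors the widest purple bar.

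No marker of other cell types was called in any MMN test, and their levels are given as measured. Of all 8251 genes, 8212 were also not called in any of these tests. The absence of calls among the markers was near that share. The 14 marker genes of meninges and fibroblasts had a mean of 9.23 ± 0.40 (log2, SD, n = 5) in IML, 8.71 ± 0.62 in MMN and 8.13 ± 0.53 in LMN, and MMN lay between the other pools for 12 of the 14. Their summed intensity ran from 10104 to 31671 in MMN, from 21418 to 29130 in IML and from 7886 to 20041 in LMN. The MMN sample of animal 2 was the highest of its pool for this list (9.73), for the 13 markers of endothelium and mural cells (8.04) and for the 11 markers of astrocytes (10.04). Animal 2 was also highest within IML and within LMN for the meningeal list (9.68 and 8.97) and for astrocytes. For endothelium and mural cells it was highest within LMN but not within IML. Its MMN difference from the mean of both pools was 0.41 for meninges, 0.76 for vessels and 0.01 for astrocytes. The called genes Igfbp3, Itih5, Bmp6 and Postn followed the pool order of the meningeal list or had their highest MMN value in animal 2. The part of other cells in those calls was not tested.

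Among these 8 marker lists, that of vessels had the largest difference of its mean from the mean of both pools, 0.30. This difference from the mean of both pools was above 0 in 5 of 5 animals. Animal 2 held much of it: the difference was 0.76 in animal 2 and 0.18 without that animal, when the red blood cell list, at -0.37, was the farthest from 0. MMN stood at 7.45 ± 0.36 (SD, n = 5), IML at 7.41 ± 0.34 and LMN at 6.90 ± 0.26. In animals 1, 3 and 5 MMN (7.46, 7.06 and 7.44) was lower than IML (7.51, 7.34 and 7.95). Of the 13 markers, 6 had MMN above both pools, 0 below both and 7 between, and none was called. Acta2, smooth muscle actin, had the largest difference of all genes, 1.73 ± 0.57 (adjusted p = 0.844). It read 9.53, 10.83, 8.53, 8.75 and 9.73 in MMN, 8.63, 7.23, 8.15, 7.86 and 10.98 in IML and 6.14, 9.13, 6.30, 6.60 and 6.39 in LMN. MMN was highest in 4 of 5 animals, but IML reached the highest value of all in animal 5, so the pools overlapped. Tagln (0.43 ± 0.23) and Myh11 (0.68 ± 0.38), of the same cell type, had MMN highest in 4 and 3 animals. The endothelial genes Pecam1 (0.02 ± 0.06) and Kdr (-0.03 ± 0.05) were level. They do not stand for the list, whose lowest difference was -0.03 and whose median was 0.09. A probe set of Eng, another endothelial marker, was -0.08 from IML and 0.55 from LMN and was not called.

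The 14 microglial and macrophage markers had a mean of 6.93 ± 0.14 in MMN, 7.27 ± 0.21 in IML and 6.83 ± 0.05 in LMN, and MMN was above both pools for none of them. The 11 markers of oligodendrocytes and the 11 of astrocytes differed from the mean of both pools by -0.03 and -0.01. Among 7 markers of inhibitory interneurons, Gad1, which makes GABA, was 0.52 ± 0.18, level with IML (0.04 ± 0.21) and 0.99 ± 0.21 above LMN (adjusted p = 0.126). The 4 markers of excitatory interneurons differed from the mean of both pools by 0.14, and by more than 0 in 5 of 5 animals. Their mean was 6.89 in MMN, 6.85 in LMN and 6.67 in IML. IML was higher than MMN in animal 2, and LMN was higher than MMN in animals 4 and 5. Of these 4 markers, only the peptide gene Cck had MMN above both pools (0.52 ± 0.23). The 5 red blood cell markers differed by -0.24 and, without animal 3, whose IML sample was the highest (10.17), by 0.02. Array intensities have no true 0, so no marker could be called absent.

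**Figure D5:**
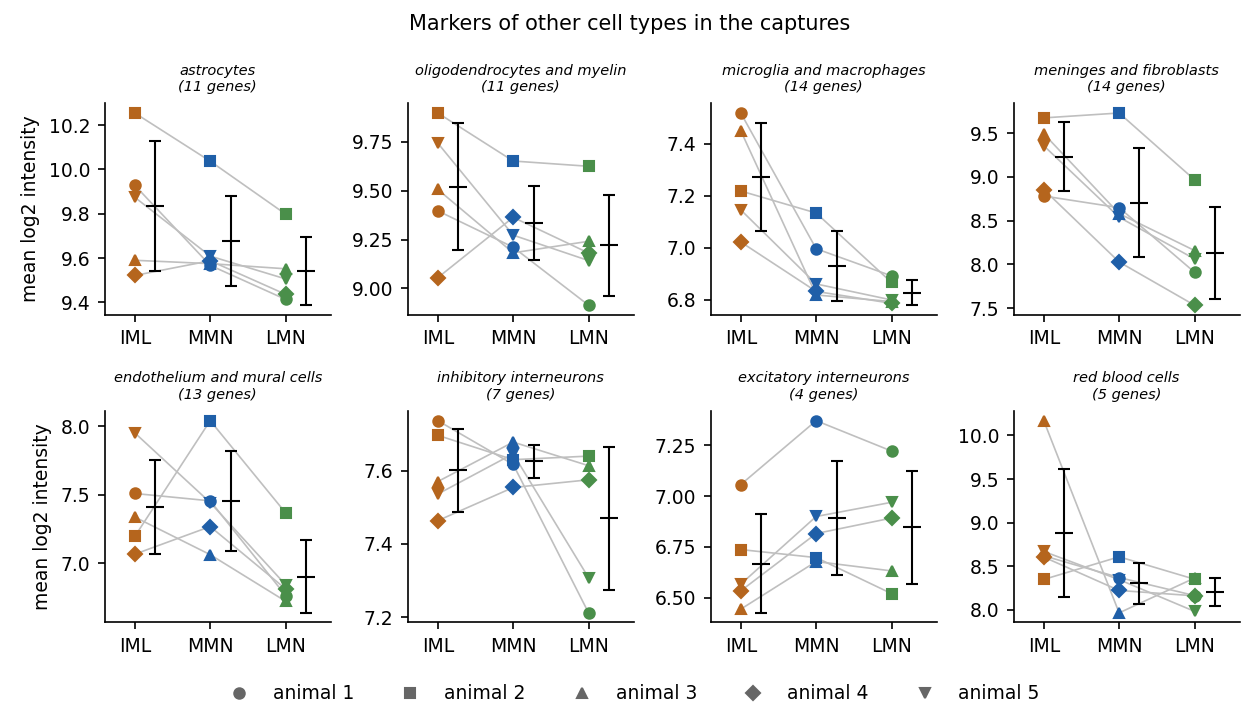
Mean log2 intensity of 8 marker lists of other cell types in IML, MMN and LMN, with 1 symbol per animal, grey lines joining the samples of an animal, and black bars for the mean and SD of the 5 animals; the vertical axes do not start at 0. The connective tissue list falls from IML through MMN to LMN, the vessel list has its lowest level in LMN, and the MMN sample of animal 2 (square) is the highest MMN symbol in the lists for astrocytes, oligodendrocytes, microglia, meninges, vessels and red blood cells.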

How the data were processed

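Each array's deposited intensity was linear: per the labels, the submitters used a tool called R-pack for normalization and took inverse logs. What R-pack did is not stated in the labels. The median intensity of an array was between 131.7 and 145.9. The table held 12488 probe sets, of which 66 were controls and were dropped. Of the remaining 12422, 10833 carried 1 gene symbol (10817 through a gene identifier), 396 carried several and 1193 carried none. A gene with several probe sets was represented by its brightest, which gave 8251 genes.

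Intensities were log2-transformed without an offset, and technical pairs were averaged. Limma 3.58.1 (R 4.3.3) fitted pool and animal as fixed terms to the 15 samples, followed by eBayes. The contrasts were MMN less the mean of IML and LMN, MMN less IML and MMN less LMN. Tests were two-sided, p-values were adjusted by Benjamini-Hochberg across the whole array, and a probe set is called when its adjusted p is under 0.05. The ± of a difference is the model's standard error. Animals were blocked because the labels give all 3 pools for each of the 5 animals; samples of the same animal deviated together in all 15 pairs (correlations from 0.288 to 0.747), although the highest correlation between samples of different animals, 0.387, was above the lowest of these.

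Genes with MMN above or below both pools and a brightest pool mean of at least 7.10 were ranked by the smaller of the 2 moderated pairwise statistics, and 12 per direction were named. Also named were 2 per list by p in the first contrast and a fixed set of motoneuron genes with Cbln1. Of the genes called in a pairwise test with MMN between the others, up to 4 were to be named by size; the other called genes, and list members beyond these 2, were picked after their values were seen. Members, lists and rules were chosen with earlier results of these data known. The steps were tested on simulated data. Alternatives changed the block, technical set, scaling, filter, floor, variance model and threshold, and left out samples.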

Additional observations from a re-analysis of the deposited data

Results flagged for a closer look

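Of 210 groups of 5 samples, 10 held a sample whose gap to its nearest neighbour was over 0.71 of the range of its group. The groups were those of the 12 genes named above and the 12 named below both pools, in each pool. The fixed motoneuron genes and the genes called against IML or LMN were also included. Genes named only from lists were not looked at. Chance sets aside about 1 group in 20 when groups are independent. These groups share the same 15 samples, so that rate cannot tell whether 10 is more than chance gives. In MMN, all 6 flagged values came from animal 2. It was the highest for Ncam1 (9.63, log2 intensity), Ctsc (6.76), Tmem159 (7.69), Bex4 (8.42) and Igfbp3 (10.02) and the lowest for Fgf11 (8.79).

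In LMN, the sample of animal 1 was the highest for Isl1 (5.96), that of animal 4 the highest for Adcyap1 (9.11) and that of animal 2 the lowest for Fgf11 (8.96). In IML, the sample of animal 1 was the lowest for Ttc39b (8.76).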

How the results depend on the processing

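Apart from the 3 named genes given last, no named gene changed its direction, but sizes and calls did change: the difference from both pools moved by over 1.5 times under at least 1 alternative for 50 of 94 named probe sets (for Vbp1, from -0.47 to between -0.58 and -0.23). The number of probe sets called between MMN and the mean of IML and LMN was 0 under all but 3 alternatives: 1 with the animal as a random replicate block, 8 with all 30 arrays and the sample as a random block, and from 0 to 1 when animals were left out in turn (1 without animal 1, Cbln1). The number of probe sets called between MMN and IML, 43, was 4 with no replicate block, so that calls depended on pairing the samples by animal, 67 with the random replicate block, 464 with all 30 arrays, 9 with technical set 1 alone, 10 with a floor of 32, 95 at a threshold of 0.1, 6 with MMN and IML samples only, 0 to 42 leaving out animals, and 21 without the LMN sample of animal 2. The number of probe sets called between MMN and LMN, 7, was 0 with no replicate block, 4 with the random replicate block, 241 with all 30 arrays, 3 with technical set 2 alone, 4 with bright probe sets only, 24 at a threshold of 0.1, 67 with MMN and LMN samples only and 0 to 5 leaving out animals. The count called in both pairwise tests in the same direction, 0, was 1 with the random replicate block and 4 with all 30 arrays. It was 1 at a threshold of 0.1 and 0 to 1 leaving out animals. In the main fit, adjusting the larger of the 2 pairwise p-values also called 0. Quantile normalization, median centring, trend and robust variance and leaving out suffixed probe sets kept every count within 1.5 times. Of the calls for single named genes, 40 were lost with no replicate block, 34 with technical set 1 alone, 30 with a floor of 32 and 20 to 44 leaving out animals.

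Among single genes the direction turned for Lmx1b with technical set 1 alone (-0.0032), for Homer1 with quantile normalization (0.0055) and without animal 1 (0.0057, with -0.053 the lowest without another animal) and for Gria2 without animal 1 (0.022, with -0.30 the lowest without another animal); the causes were not tested. The number of animals and the unknown normalization limit all values.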

Other observations

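Genes of adhesion, secretion and the release machinery had medians from -0.06 to 0.01. Of 18 classical cadherins and protocadherins, 9 had MMN below both pools, 2 above both and 7 between, with a median difference of -0.06 (log2) and 0 called. Cdh2, the neural cadherin, was -0.18 ± 0.08 (SE, n = 5) from the mean of both pools. Of 29 neuropeptides and granins, 10 were below both and 5 above both, with a median of -0.04; Adcyap1 was the 1 member called, against IML. The peptide gene Gal was -0.21 ± 0.08, with MMN lowest in 4 of 5 animals. Of 37 genes of synaptic vesicles and release, 25 had MMN between, and Syt5 was the 1 member called, against IML. Syt4, an atypical synaptotagmin, was level with IML (-0.06 ± 0.15) and -0.91 ± 0.15 from LMN (adjusted p = 0.0844). Of 24 calcium-binding genes, 15 had MMN between, and Hpca was the 1 member called, against IML.

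The 28 immediate early and injury genes had 7 above both pools and 7 below both, with a median of -0.02. Klf4, a zinc finger factor, was 0.40 ± 0.16, level with IML and 0.78 ± 0.18 above LMN (adjusted p = 0.154), and the stress factor gene Atf3 was -0.40 ± 0.17. The 34 heat shock and chaperone genes had 7 above and 9 below, with a median of 0.01; the mitochondrial chaperone gene Hspa9 was 0.16 ± 0.05 and the HSP40 gene Dnaja1 was -0.17 ± 0.06. The 30 cytosolic ribosomal protein genes had 20 between, with a median of 0.00. Axon guidance genes (27 of 45 between, median -0.01), neurotrophic factors and receptors (17 of 25, 0.00), fibroblast growth factors and receptors (15 of 22, -0.01) and sodium, HCN and calcium channels (11 of 19, -0.03) also lay mostly between the other pools. Among the markers of motoneuron types, the 4 measured for alpha and fast motoneurons had a median of 0.20, the 6 for gamma and slow motoneurons 0.01, the 13 general ones 0.03 and the 8 cholinergic ones -0.02. Of the 4 for alpha and fast motoneurons, 3 had MMN between the other pools and 1 above both. Their median difference was 0.80 from IML and -0.38 from LMN.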
